A study of Mus musculus with 6 samples.

Results

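The genes described here encode the subunits, activators and base assembly chaperones of the mouse proteasome. They were measured in CD4+CD25+ regulatory T cells (Treg), the lymphocytes that restrain immune responses and depend on the transcription factor Foxp3. A gene counted as a member when a probe set (the group of array probes read as 1 value) named it alone and its symbol was Psma, Psmb, Psmc, Psmd or Psme followed only by digits. Of 12393 genes measured in the series, 41 were members, each represented by whichever of its probe sets was brightest on average over the 6 arrays. They were 41 of the 43 genes listed for the complex; Psmb11, the thymus-specific catalytic subunit, and Psme2, a subunit of the interferon-induced activator, had no probe set of their own. Psmb8, Psmb9, Psmb10 and Psme1 were set apart as immunoproteasome genes, which left 37 other members. The symbols Psmc3ip and Psme3ip1, which carry letters after the digits and name other proteins, were left out.

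Treg separated by magnet from mice lacking HDAC6 were compared with Treg separated in the same way from wild-type C57BL6 mice, with 3 arrays per genotype. HDAC6 is a mostly cytoplasmic deacetylase that also binds ubiquitin, the tag that sends proteins to the proteasome. The labels gave a strain for the wild-type mice only; the sources used here did not give the deleted part of the gene, the age or sex of the animals, or whether each sample pooled several mice. The samples were described as independent, without saying what separated them, so p-values measure the spread between these samples.

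The proteasome is the protease that degrades most short-lived and damaged proteins. A barrel-shaped core of alpha and beta rings cuts proteins inside its chamber, and a regulatory cap with a base of ATPases and a lid binds ubiquitin chains, removes them and feeds the unfolded substrate into the core. In lymphocytes, and in other cells exposed to interferon, Psmb8, Psmb9 and Psmb10 take the places of the catalytic subunits Psmb5, Psmb6 and Psmb7. The resulting immunoproteasome makes peptides suited to loading on MHC class I, and the ring formed by Psme1 and Psme2 opens the core without a need for ubiquitin.

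Stretches of DNA before the start sites of 3 catalytic subunit genes, from RefSeq (mouse build GRCm38.p6), are given to show what lies next to the genes on which the comparison turns. They run 5′ to 3′ on each gene's own strand and end before the annotated start. Capitals mark a match to TGACNNNGC, the antioxidant response core used by NRF1 and NRF2, in Psmb5 and Psmb6. The Psmb9 stretch is the whole interval of 225 bases between the start of Psmb9 and that of Tap1, a peptide transporter gene on the opposite strand, and it held no match to this motif or to the interferon-stimulated response core, GAAA repeated after any 2 bases.
Psmb9, chr17:34187331-34187555, minus strand: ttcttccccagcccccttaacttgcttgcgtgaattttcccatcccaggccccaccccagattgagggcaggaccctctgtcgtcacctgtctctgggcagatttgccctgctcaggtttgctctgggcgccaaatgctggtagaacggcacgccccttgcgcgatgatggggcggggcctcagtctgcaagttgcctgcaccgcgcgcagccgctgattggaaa
Psmb5, chr14:54617996-54618095, minus strand: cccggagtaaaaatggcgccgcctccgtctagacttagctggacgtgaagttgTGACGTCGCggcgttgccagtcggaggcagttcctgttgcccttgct
Psmb6, chr11:70525257-70525356, plus strand: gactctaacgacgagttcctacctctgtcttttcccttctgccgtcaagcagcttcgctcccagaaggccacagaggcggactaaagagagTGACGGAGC

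Both motifs were searched on both strands from 250 bases before to 50 bases after the start in 36 RefSeq promoters of 34 members. Psma8, Psmb1, Psmb2, Psmb7, Psmc3, Psmd3 and Psmd7 were not matched. The antioxidant core was found in 6 of the 36 (16.7%), against 12.4% of all 32851 promoters of that length: besides Psmb5 and Psmb6 these were Psmc6, Psmd9, Psmd12 and Psme4. The interferon-stimulated response core was found in 4 (11.1%, against 3.44%), Psmb3, Psmd4, Psmd9 and Psme1, of which Psme1 carried it just after its start. Psmd9 alone among these promoters held both, at separate positions. A match describes the letters only, and the lack of one says nothing about whether a factor binds.

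Proteasome transcripts were close to equal in the knockout and wild-type Treg. Of the 41 members 23 were higher and 18 lower in the knockout, a share of 56.1% higher beside 50.7% of all genes. With a mean log2 value of at least 9, 58.8% of 34 members and 41.7% of 2586 genes were higher. The median log2 difference, knockout minus wild type, was 0.01 over the members and 0.00 over all genes. None of the 41 passed the threshold (limma, Benjamini-Hochberg adjusted p under 0.05 over all genes), where 0.169% of all genes did, 7 higher and 14 lower. The smallest adjusted p of a member was 0.381. At an unadjusted p under 0.05 there were 2 members, Psmb9 (higher) and Psma8 (lower), or 4.9%, beside 11.8% of all genes.

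The knockout and wild-type arrays overlapped for all but 5 members, 12.2% beside 18.6% of all genes. With a mean log2 value of at least 9, 8.8% of 34 members and 23.4% of 2586 genes had no overlap. Psmb8 and Psmb9 were the 2 whose knockout values all lay above the wild-type values (8.28% of all genes did so). Psmb6, Psma8 and Psmd9 were the 3 whose knockout values all lay below (10.3% of all genes did so).

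**Figure D1:**
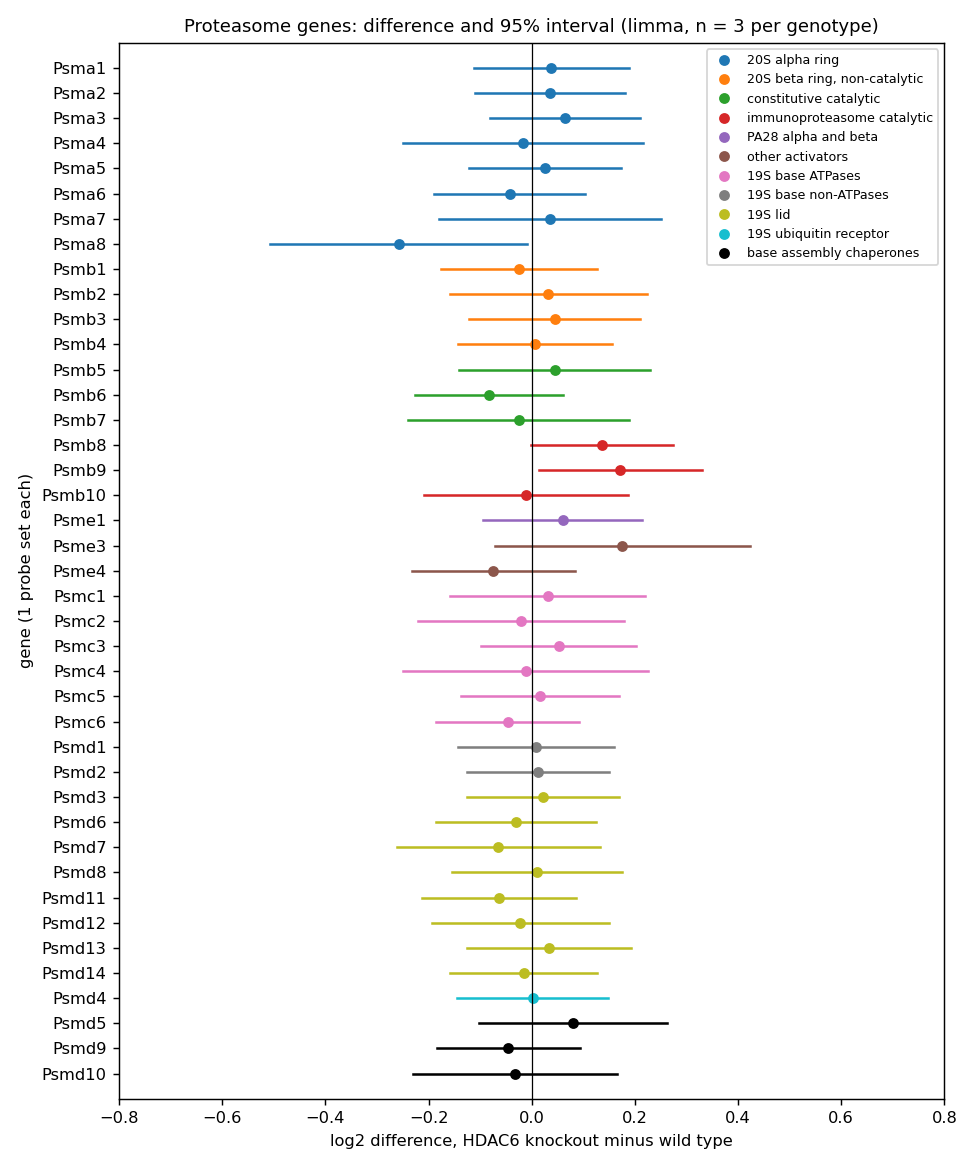
Log2 difference, HDAC6 knockout minus wild type, for each of the 41 proteasome genes (points) with its 95% interval from limma (lines), 3 arrays per genotype, coloured by subunit class. Most points lie within 0.1 of 0; Psmb8, Psmb9 and Psme3 lie highest and Psma8 lowest, at -0.26.

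The data bounded these differences narrowly. For 37 of the 41 members the log2 difference was smaller than 0.1 in either direction, where 55.5% of all genes were. For 38 members the whole 95% interval lay within 0.3 of 0, as it did for 45.7% of all genes. The exceptions were Psmb9, Psme3 and Psma8. Among the 2586 genes with a mean log2 value of at least 9 these shares were higher. For 67.2% of them the difference was smaller than 0.1, and for 70.2% the interval lay within 0.3 of 0. Bright probe sets vary less on these arrays, and most members were bright: 34 had a mean log2 value of at least 9. Those 34 had a median standard error of 0.06 and a median absolute difference of 0.03, all 2586 genes of that brightness had 0.07 and 0.07, and all genes together had 0.09 and 0.09. A change in a probe set near the top of the scale can be understated.

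Median log2 values of the 6 arrays ran from 6.22 to 6.27. Hdac6 itself gave knockout values of 7.54, 7.86 and 7.64 and wild-type values of 8.54, 8.23 and 8.42 (difference -0.71, SE 0.11, limma adjusted p = 0.0775), without overlap and without passing the threshold. The sources used here did not say where its probe set lies relative to the deletion. Foxp3 and Il2ra, which encodes CD25, were well above the arrays' lower quartiles (4.14 to 4.25) in all 6 arrays and differed by 0.06 (SE 0.08) and 0.01 (SE 0.12). They differed least of the 8 listed Treg and CD4 T cell markers, of which 6 were higher and 2 lower. Cd4, Ikzf2 and Ctla4 differed by 0.21, 0.20 and 0.16, with overlap, and Cd3d by -0.11, without overlap. The summed level of the 8 on the log2 scale was 14.28 to 14.33 in the knockout and 14.30 to 14.34 in wild type.

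Markers of other cells were also present. The summed level of 4 plasma cell markers (Jchain, Sdc1, Tnfrsf17 and Xbp1), of 5 listed, ran from 13.88 to 14.07 on the log2 scale in the knockout and from 13.13 to 13.56 in wild type. All 4 were higher in the knockout without overlap, as were 8.28% of all genes. None passed the threshold in limma, and all 4 had an unadjusted p under 0.05, as did 11.8% of all genes. For the other lists the summed levels were 9.52 to 10.09 against 9.95 to 10.56 for 4 of 5 B cell markers, 7.23 to 7.35 against 7.43 to 7.62 for both CD8 T cell markers (Cd8b1 lower by a difference of -0.37 and Cd8a higher by 0.25, each without overlap), 8.07 to 8.50 against 8.24 to 8.85 for all 6 myeloid markers, and 4.53 to 5.55 against 4.81 to 5.47 for 1 of 2 NK cell markers. Of the B cell markers Ms4a1 (-1.13, without overlap) and Cd79b (-0.32) were lower, and Cd79a (0.14) and Pax5 (0.17) higher. Of the myeloid markers 2 were higher and 4 lower, Cd14 without overlap (-0.19). The part of these cells in the proteasome values was not tested. In such bulk samples fewer cells of a type and less RNA per cell cannot be told apart.

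Psmb8, the immunoproteasome subunit with chymotrypsin-like activity (LMP7), gave log2 knockout values of 12.02, 12.07 and 12.07 and wild-type values of 11.93, 11.92 and 11.90. All 3 knockout arrays lay above all 3 wild-type arrays, by a small margin. The log2 difference was 0.14 (SE 0.06, 95% interval -0.0024 to 0.27), a 1.10-fold higher level, and limma's adjusted p was 0.430. Leaving out 1 array at a time gave 0.13 to 0.15.

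Psmb9, the immunoproteasome subunit LMP2, which takes the place of Psmb6, gave knockout values of 11.26, 11.23 and 11.12 and wild-type values of 11.02, 11.01 and 11.06. The genotypes did not overlap, and knockout replicate 3 lay nearest to wild type. The difference was 0.17 (SE 0.07, 95% interval 0.01 to 0.33), or 1.13-fold, with limma's adjusted p at 0.381. It ranged from 0.14 to 0.21 when 1 array was left out, lowest without knockout replicate 1.

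The other immunoproteasome genes overlapped between genotypes. Psmb10, the subunit with trypsin-like activity (MECL-1), gave knockout values of 10.69, 10.57 and 10.60 and wild-type values of 10.52, 10.77 and 10.61. Its highest and lowest values were both wild type, and the difference was -0.01 (SE 0.08, 95% interval -0.21 to 0.19), with a sign that depended on the array left out (-0.07 to 0.06). Psme1, the alpha subunit of the activator ring, gave knockout values of 12.06, 11.99 and 11.92 and wild-type values of 11.92, 11.95 and 11.92, a difference of 0.06 (SE 0.06, 95% interval -0.09 to 0.21). Only knockout replicates 1 and 2 stood above all wild-type arrays for Psme1, and its difference ran from 0.03 without knockout replicate 1 to 0.09 without knockout replicate 3. A probe set that names Psme2 together with the related gene Psme2b, and so stands for no single gene, gave knockout values of 11.88, 11.73 and 11.91 and wild-type values of 11.66, 11.79 and 11.69 (difference 0.12, SE 0.08), with overlap. Over the 4 immunoproteasome genes 3 were higher and 1 lower, with a median difference of 0.10; over the 37 other members 20 were higher and 17 lower, with a median of 0.01.

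The constitutive subunits that these genes replace showed no common direction. Psmb5, the standard chymotrypsin-like subunit, gave knockout values of 10.39, 10.25 and 10.46 and wild-type values of 10.31, 10.38 and 10.26, a difference of 0.04 (SE 0.08, 95% interval -0.14 to 0.23) that became -0.0031 without knockout replicate 3. Psmb6, the standard caspase-like subunit, gave knockout values of 10.25, 10.22 and 10.27 and wild-type values of 10.29, 10.38 and 10.32. Its genotypes did not overlap, with the knockout lower by a narrow margin, and the difference was -0.08 (SE 0.06, 95% interval -0.23 to 0.06, limma adjusted p = 0.646). Psmb7, the standard trypsin-like subunit, gave knockout values of 10.51, 10.33 and 10.21 and wild-type values of 10.45, 10.32 and 10.36. Knockout arrays gave both its highest and its lowest value, and the difference was -0.03 (SE 0.09, 95% interval -0.24 to 0.19), which turned positive without knockout replicate 3 (0.04) or wild type replicate 1 (0.01).

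**Figure D2:**
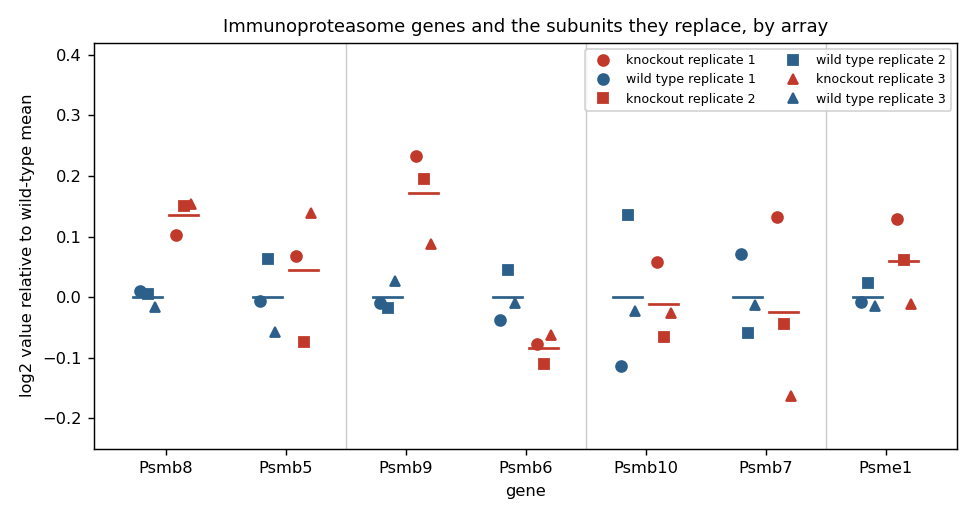
Log2 value of each array relative to the gene's wild-type mean (vertical axis) for the immunoproteasome genes and the constitutive subunits they replace, set side by side in pairs, with Psme1 at the right; symbols are replicate numbers and bars are genotype means. For Psmb8 and Psmb9 every knockout array (red) lies above every wild-type array (blue), and for Psmb6 every knockout array lies below.

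Whether an immunoproteasome subunit and its counterpart changed unequally was examined within arrays, as the log2 value of the first minus that of the second, with an exact two-sided permutation test of the 20 splits of the arrays, which cannot give a p below 0.1 with 3 arrays per genotype. There were 3 pairs, and p-values were adjusted over them. For Psmb9 against Psmb6 the knockout stood 0.31, 0.30 and 0.15 above the wild-type mean of that quantity, and wild type scattered around it at 0.03, -0.06 and 0.04. The shift was 0.25 (SD 0.09 in the knockout and 0.06 in wild type, n = 3 each), without overlap, and the exact permutation p was 0.1, the smallest possible, or 0.3 adjusted over the pairs. With Psmb9 higher and Psmb6 lower in every knockout array than in any wild-type array, that lack of overlap and that p were fixed. They add nothing to the values of the single genes.

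For Psmb8 against Psmb5 the knockout stood at 0.04, 0.22 and 0.01 and wild type at 0.02, -0.06 and 0.04, so the genotypes overlapped. The shift was 0.09 (SD 0.12 and 0.05, exact permutation p = 0.5, adjusted 0.75), and it was 0.02 without knockout replicate 2. Under quantile normalization the shift was 0.10 and the exact permutation p, not adjusted over the pairs, was 0.1, the smallest possible. The overlap of this pair thus depended on the normalization. For Psmb10 against Psmb7 the knockout values of -0.07, -0.02 and 0.14 lay inside the wild-type values of -0.18, 0.19 and -0.01. That shift was 0.01 (SD 0.11 and 0.19, exact permutation p = 1.0) and its sign depended on the array left out (-0.08 to 0.11).

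The structural core differed little between genotypes. The alpha ring, whose outer face forms the gate of the core, had 5 of 8 genes higher and 3 lower, with a median of 0.03. Psma3, the alpha ring gene with the smallest p after Psma8, gave knockout values of 11.86, 11.77 and 11.83 and wild-type values of 11.73, 11.78 and 11.75, overlapping, with a difference of 0.06 (SE 0.06). Psma1, Psma2, Psma4, Psma5, Psma6 and Psma7 lay between -0.04 and 0.04.

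Psma8, the testis-specific counterpart of Psma7, stood apart from the ring. It gave knockout values of 3.62, 3.41 and 3.69 and wild-type values of 3.98, 3.82 and 3.70, below the arrays' lower quartile in every array. Without detection calls its expression in these cells is not established, and its difference of -0.26 (SE 0.11, limma adjusted p = 0.403), the largest of any member, was among values at the dim end of the scale. The highest knockout value and the lowest wild-type value, both of replicate 3, lay next to each other.

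The non-catalytic beta subunits Psmb1, Psmb2, Psmb3 and Psmb4 differed by -0.02, 0.03, 0.04 and 0.01, all with overlap. Their median was 0.02, beside -0.03 for the constitutive catalytic subunits and 0.14 for the immunoproteasome catalytic subunits.

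The ATPases of the cap's base, which unfold substrates, were split evenly, with 3 of 6 higher and 3 lower and a median of 0.00. Psmc3 gave knockout values of 10.61, 10.61 and 10.63 and wild-type values of 10.54, 10.64 and 10.52, a difference of 0.05 (SE 0.06). The knockout arrays were tightly grouped and lay within the spread of wild type. Psmc6 gave knockout values of 10.07, 10.07 and 10.10 and wild-type values of 10.13, 10.16 and 10.10, a difference of -0.05 (SE 0.06), with knockout replicate 3 and wild type replicate 3 touching. The other ATPases, Psmc1, Psmc2, Psmc4 and Psmc5, lay between -0.02 and 0.03. The scaffold subunits of the base, Psmd1 and Psmd2, differed by 0.01 each, and Psmd2 had the narrowest range of any member over the 6 arrays, 0.05. Psmd4, a ubiquitin receptor of the cap, differed by 0.0018 (SE 0.06, 95% interval -0.14 to 0.15).

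In the lid, which holds the deubiquitinase Psmd14, 3 of 8 genes were higher and 5 lower, with a median of -0.02. Psmd14 differed by -0.02 (SE 0.06). Psmd11, a lid scaffold, gave knockout values of 10.19, 10.11 and 10.13 and wild-type values of 10.21, 10.25 and 10.16, overlapping, with a difference of -0.06 (SE 0.06). Psmd7, the partner of Psmd14, gave knockout values of 8.77, 8.63 and 8.50 and wild-type values of 8.75, 8.69 and 8.65, a difference of -0.07 (SE 0.08). Knockout arrays held both its highest and lowest value. Psmd3, Psmd6, Psmd8, Psmd12 and Psmd13 lay between -0.03 and 0.03.

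Of the chaperones that assemble the base 1 was higher and 2 were lower, with a median of -0.03. Psmd9 gave knockout values of 7.35, 7.34 and 7.34 and wild-type values of 7.36, 7.43 and 7.38, lower in the knockout without overlap, with a difference of -0.05 (SE 0.06, limma adjusted p = 0.812). The knockout arrays of Psmd9 were almost identical, and wild type replicate 1 lay just above them. Psmd5 gave knockout values of 8.98, 9.11 and 9.09 and wild-type values of 8.98, 9.08 and 8.89, a difference of 0.08 (SE 0.08), and Psmd10, also known as gankyrin, differed by -0.03 (SE 0.08); both overlapped.

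Of the activators other than the Psme1 and Psme2 ring 1 was higher and 1 lower. Psme3, which forms a nuclear activator ring of its own, gave knockout values of 8.88, 8.74 and 8.65 and wild-type values of 8.77, 8.47 and 8.50. Wild type replicate 1 lay above 2 of the knockout arrays, and the difference was 0.18 (SE 0.10, 95% interval -0.07 to 0.42, limma adjusted p = 0.573). With 1 array left out it ran from 0.11 (without knockout replicate 1) to 0.27 (without wild type replicate 1). It was 0.08 with the gene's probe sets averaged and 0.0037 from the second brightest probe set. Psme4, the large activator PA200, gave knockout values of 9.33, 9.20 and 9.32 and wild-type values of 9.38, 9.31 and 9.37, a difference of -0.07 (SE 0.07), with overlap.

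Array by array, the median of the 37 other members overlapped between genotypes, and that of the 3 immunoproteasome catalytic genes did not. Psmb8 and Psmb9 each lay above their mean in every knockout array and below it in every wild-type array. A median of 3 genes then had to separate, so it restates those genes and is no further result. Relative to each gene's mean over the 6 arrays, the median of the 37 other members stood at 0.02, -0.02 and -0.0035 in knockout replicates 1 to 3 and 0.0047, 0.04 and -0.02 in the wild-type replicates. The highest and the lowest were thus both wild type. The 3 immunoproteasome catalytic genes had deviations of 0.06, 0.08 and 0.0012 for the knockout replicates and -0.09, -0.06 and -0.06 for wild type, higher in every knockout array, with replicate 3 close to 0. Over all genes the same quantity stayed between -0.02 and 0.02.

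**Figure D3:**
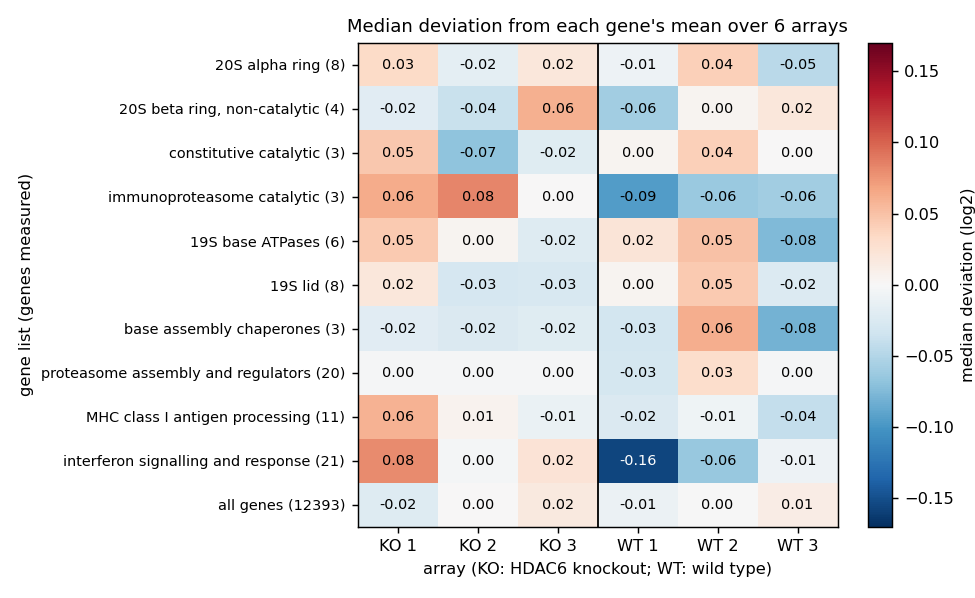
Median deviation (log2, colour and printed value) of each gene list from its genes' means over 6 arrays, 1 column per array, with the number of genes measured in brackets. The immunoproteasome catalytic genes run from 0.0012 to 0.08 in the knockout and from -0.09 to -0.06 in wild type. This separation follows from Psmb8 and Psmb9. In the other proteasome classes shown the knockout and wild-type arrays overlap.

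The other probe sets of the members did not pass the threshold either. The members had 74 probe sets in all, and 19 members had more than 1. Of the 33 probe sets that did not stand for their gene, 16 were higher and 17 lower, with a median of -0.0004, and none passed the threshold over the 22626 tested probe sets; 3 had an unadjusted p under 0.05, as did 10.6% of all probe sets. The sign differed among probe sets for 13 of the 19 members (68.4%, beside 46.0% of all genes with several), namely Psma1, Psma5, Psmb1, Psmb4, Psmc2, Psmc4, Psmc6, Psmd4, Psmd6, Psmd7, Psmd9, Psmd11 and Psmd13. Dim probe sets had a part in this, as 14 of the 33 had a mean log2 value below 6. Among 15 members with at least 2 probe sets of mean 6 or more, 8 differed in sign. Psma1, Psmb1, Psmc6, Psmd7 and Psmd9 differed in sign only through dimmer probe sets. Psmb8, Psmb9 and Psmb10 had 1 probe set each, so their values had no second reading.

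Lower values without overlap came from 4 of these 33 probe sets, a share close to that of all probe sets (9.48%), and are given as a description. Another probe set of Psme4 gave knockout values of 8.51, 8.34 and 8.39 and wild-type values of 8.80, 8.59 and 8.55, a difference of -0.23 (SE 0.09, limma adjusted p = 0.428 over probe sets). A probe set of Psmd11 gave knockout values of 9.93, 9.80 and 9.77 and wild-type values of 10.02, 10.04 and 9.96, a difference of -0.17 (SE 0.07). Both differences had the sign of their gene's brightest probe set and were larger. Further probe sets of Psmd11 lay on both sides of 0, from -0.05 to 0.12, with 1 of mean log2 value 9.03 at 0.10. Averaged over its probe sets Psmd11 differed by -0.02. The other lower probe sets without overlap were 1 of Psma5 (-0.13), whose brightest probe set was at 0.02, and 1 of Psma6 (-0.13). The largest difference was in a probe set of Psmc6, at 7.54, 7.02 and 6.98 against 7.64, 7.55 and 7.47 (-0.38, SE 0.15), where knockout replicate 1 lay within the wild-type values.

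**Figure D4:**
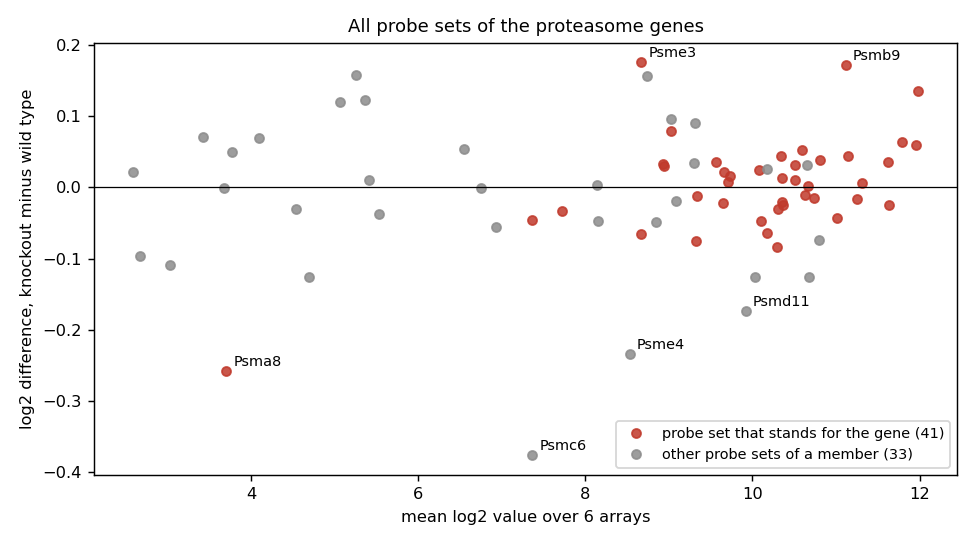
Log2 difference, knockout minus wild type, against mean log2 value over 6 arrays for all 74 probe sets of the proteasome genes; red points stand for the gene and grey points are its other probe sets. Points beyond 0.17 are named; the lowest, a probe set of Psmc6, lies at -0.38, while the one that stands for Psmc6 lies at -0.05.

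Genes that assemble or regulate the proteasome were divided in the same way: of 23 listed, 20 were measured, 10 were higher and 10 lower with a median of 0.00, and in limma 0 passed the threshold and 0 had an unadjusted p under 0.05. Nfe2l1, which encodes NRF1, the factor that raises proteasome genes when the proteasome is impaired, gave knockout values of 8.58, 8.68 and 8.77 and wild-type values of 8.58, 8.55 and 8.62 (difference 0.09, SE 0.07). The assembly chaperones Psmg2 and Psmg4 differed by -0.13 (SE 0.08) and -0.10 (SE 0.07), and the ubiquitin shuttle Rad23b by 0.17 (SE 0.11). Of these Psmg2 had genotypes without overlap.

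Of 12 listed genes of MHC class I antigen processing 11 were measured, 6 higher and 5 lower with a median of 0.02. In limma 0 passed the threshold and 1 had an unadjusted p under 0.05 (9.1%, beside 11.8% of all genes). Tap1, which carries peptides into the endoplasmic reticulum and whose start lies across the interval printed above from that of Psmb9, had the smallest p of them. It gave knockout values of 10.49, 10.60 and 10.63 and wild-type values of 10.40, 10.26 and 10.39, without overlap, a difference of 0.23 (SE 0.07, 95% interval 0.05 to 0.40, limma adjusted p = 0.301). Among the knockout arrays Tap1 was lowest in replicate 1 and close in replicates 2 and 3, and Psmb9 was lowest in replicate 3. Whether Psmb9 and Tap1 vary together was not tested. Tap2, the partner of Tap1, differed by 0.11 (SE 0.07), with overlap, and Tapbpl, a peptide editor, by 0.07 (SE 0.09), also with overlap. The class I heavy chain H2-K1 differed by 0.06 (SE 0.06), higher in the knockout without overlap by a narrow margin. Tap1 and H2-K1 were the 2 of 11 higher without overlap (18.2%), beside 8.28% of all genes.

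Interferon signalling and response genes were mostly higher in the knockout, without passing the threshold. Of 24 listed 21 were measured, 14 higher and 7 lower, with a median of 0.14, where 50.7% of all genes were higher. The genotypes did not overlap for 5 genes that were higher and 1 that was lower, beside 8.28% and 10.3% of all genes. At an unadjusted p under 0.05 in limma there were 4, beside 11.8% of all genes. The antiviral genes Oasl2, Rsad2 and Mx1 differed by 1.57 (SE 0.34), 1.15 (SE 0.25) and 0.74 (SE 0.17), each with its highest value in knockout replicate 1. The wild-type values of Oasl2, 3.34, 3.90 and 4.02, lay below the arrays' lower quartiles (4.14 to 4.25), at the dim end of the scale. Gbp2, an interferon-induced GTPase, differed by 0.32 (SE 0.13), with overlap. The median deviation of the list was 0.08, -0.0038 and 0.02 in the knockout replicates and -0.16, -0.065 and -0.01 in wild type. Psmb8 was lowest of the knockouts in replicate 1, where the interferon list was highest, and Psmb9 was highest there; without that array Psmb8 differed by 0.15 and Psmb9 by 0.14. The part of interferon signalling in these values was not tested.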

How the data were processed

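The authors deposited 1 table of log2 values for 6 arrays and 22690 probe sets, made with RMA per the submitters' processing notes (no version given); the log2 scale was taken from the range of the values. RMA subtracts background, gives all arrays 1 distribution of values and combines the probes of each set. After 64 control probe sets were removed, 22626 were tested, of which 20380 named 1 gene, 691 several and 1555 none. Gene symbols were those of the platform annotation, brought up to date by gene ID with the RefSeq table (GRCm38.p6) for 20351 probe sets.

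The 12393 genes were fitted together in limma 3.58.1 (R 4.3.3; lmFit, eBayes) with a genotype term alone. Tests were two-sided, p-values were adjusted over all genes by Benjamini-Hochberg, and the threshold was 0.05. Intervals are 95%. Differences are log2, knockout minus wild type, with their standard errors (SE). Precision is limited by the number of arrays. The fit was tested on simulated data. Other settings tried were quantile normalization, a replicate block, centring on medians, trend and robust moderation, array weights, a minimum mean of 6, other probe set rules, adjustment over probe sets, a threshold of 0.1 and leaving out each array.

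The members, classes and lists were chosen with earlier results of these data known. Named members were the immunoproteasome genes, their counterparts, the 10 others with the smallest p and members whose probe sets differ in sign; from each pathway list up to 4 genes with the smallest p. Plots used matplotlib 3.10.9 (Python 3.11.15). 1 motif of the promoter search is not reported here.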

Additional observations from a re-analysis of the deposited data

How the results depend on the processing

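No member passed the threshold under any of the alternatives run, and the smallest adjusted p of a member ran from 0.174 (trend and robust moderation) to 0.624 (without knockout replicate 2). The count of genes past the threshold over all 12393, 21 in the comparison reported, was 106 with trend and robust moderation, 49 with array weights, 61 among genes with a mean of at least 6, 92 at a threshold of 0.1, 44 as probe sets adjusted over all probe sets, 20 when moderated over all probe sets (chosen after seeing the data), and 3 to 28 with 1 array left out (3 without knockout replicate 2 or wild type replicate 2, 9 without knockout replicate 1).

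Whether the replicate numbers pair the samples was not settled. Same-numbered arrays' deviations from their genotype means correlated at 0.22, -0.09 and 0.10. The first was the highest of all combinations, while knockout replicates 2 and 3 correlated better with another number. Deviations from a mean of 3 arrays are tied to each other, so these values cannot exclude a pairing. With the replicate block 12 genes and 0 members passed.

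Differences near 0 changed sign. With 1 array left out Psmb10 ran from -0.068 to 0.057 (0.016 without knockout replicate 2, 0.057 without wild type replicate 2), Psmb5 from -0.0031 to 0.10, Psmb7 from -0.10 to 0.044 (0.010 without wild type replicate 1) and Psmb10 against Psmb7 from -0.079 to 0.11 (-0.048 without knockout replicate 3). With all probe sets of a gene averaged Psmd7 was 0.0018 and Psmd9 0.039, and from the second brightest probe set Psmd9 was 0.12. The alpha ring's median was -0.017 with averaged and -0.0090 with second brightest probe sets and ran from -0.013 to 0.056 with 1 array left out. The constitutive catalytic median ran from -0.086 to 0.010. The assembly chaperones' median was 0.039 with averaged and 0.080 with second brightest probe sets and ran from -0.057 to 0.039. The causes were not tested. Psmb8, Psmb9 and Psmb6 kept their direction in the alternatives run on single differences: the replicate block, both normalizations, both probe set rules (which cannot alter these genes, with 1 probe set each) and leaving out each array.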
